A study of Rattus norvegicus and Ovis aries with 113 samples.

Results

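The genes that turn cholesterol into progesterone, androgen and estrogen were followed through ovary, brain and sperm RNA in rat and sheep. The set was a fixed list of 10 genes: Star, Cyp11a1, Fdx1, Hsd3b1, Cyp17a1, Cyp19a1, Hsd17b1, Hsd17b7, Srd5a1 and Akr1c18, matched by symbol. All 10 had a row among the 38675 genes of the rat table, where Akr1c18 is listed as Akr1c3 (a RefSeq synonym), and 9 had one among the 31304 genes of the sheep table, where aromatase is listed as CYP19. The rat libraries came from Sprague Dawley animals: ovary and whole brain of 14 females (rats 1, 2 and 18 to 29) and whole brain and sperm, harvested as seminal fluid, of 15 males past puberty. The sheep libraries came from 5 males past puberty, with 10 dissected brain regions and sperm from each. No treatment was given, and the estrous stage of the females, which sets ovarian hormone output, is not given in the sources used here. Each library was made from bulk tissue, so fewer cells of a type and less RNA per cell cannot be told apart in any value below.

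Steroid synthesis begins when the protein made from Star carries cholesterol to the inner mitochondrial membrane. There Cyp11a1, fed electrons by the iron-sulfur protein ferredoxin (Fdx1), cuts the side chain to make pregnenolone, and the 3-beta-hydroxysteroid dehydrogenases (Hsd3b1 and its paralogs) turn pregnenolone into progesterone. In the ovary, theca cells make androgen with Cyp17a1, granulosa cells turn that androgen into estrogen with Cyp19a1 (aromatase) and Hsd17b1, and the corpus luteum makes progesterone. Srd5a1 (5-alpha-reductase 1) and Akr1c18 (20-alpha-hydroxysteroid dehydrogenase) reduce progesterone and related steroids, the latter being the enzyme that ends progesterone output of the rodent corpus luteum. Hsd17b7 acts both on estrone and in cholesterol synthesis. In the brain some of these enzymes serve local synthesis of neurosteroids.

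The 58 rat and 55 sheep libraries held 13698889 to 119206015 counted reads each, and the ovaries 50485490 to 60265909. Levels are given as CPM, a gene's reads scaled to library size with the TMM factors of each species, which are not per length, so genes are not ranked against each other. Rat brains 1 and 4 were rich in ribosomal RNA (29.9% and 28.4% of counts in Rn45s). Rat sperm libraries 16 and 17 held few genes at low counts, with 3.21% and 3.34% of genes at 1 to 9 counts. Tissue labels were checked with marker lists. Of the rat markers tested in ovary against female brain, 10 of 10 granulosa, 6 of 7 luteal and 7 of 7 oocyte genes were higher in ovary and 6 of 6 neuron genes were lower. Of 6 theca markers 4 were higher and Hhip was lower. Higher too were 4 of 4 fat cell, 3 of 4 oviduct and 3 of 4 blood genes. Of 4 astrocyte genes 3 were lower and Aldh1l1 was higher. Of all genes 27.7% were called higher in ovary and 29.2% lower. In rat sperm against male brain 8 of 8 spermatid genes were higher, where 27.7% of all genes were called higher.

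The first comparison asked how far the ovary stood above the brain of the same females. Of the 10 genes, 9 were called higher in ovary (adjusted p below 0.05 over all genes and at least 1 log2 unit), against 27.7% of all 20801 genes tested called higher (29.2% lower, 56.9% in either direction). Their median log2 difference, with Srd5a1 included, was 8.84, and that of all genes was 0.02. All 9 were separated completely, each ovary lying above each female brain. The tests were edgeR quasi-likelihood tests with Benjamini-Hochberg adjustment, and errors on log2 values are standard errors.

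Star (chromosome 16, 72969824 to 72974447 in GRCr8) ranged over the 14 ovaries from 442 CPM in rat 19 to 2022 CPM in rat 2, with a median of 919. In female brain it ran from 0.651 to 0.980 CPM. The log2 difference was 10.24 ± 0.22 (edgeR adjusted p = 3.3e-27). For the side-chain enzyme Cyp11a1 (chromosome 8, 67318665 to 67330196) the ovaries held 2542 ± 933 CPM (SD, n = 14) and the brains 0.0415 CPM, a total of 35 reads over 14 brains. Its electron donor Fdx1 (chromosome 8, 61164839 to 61183645) was present in both tissues, at 732 ± 153 CPM in ovary and 9.72 ± 2.85 CPM in brain (SD, n = 14), so its difference was smaller, 6.25 ± 0.15 on the log2 scale. These 3 genes supply the first step of the pathway, and all 3 were abundant in each of the 14 ovaries.

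Hsd3b1 (chromosome 2, 188858574 to 188864694) held 5475 ± 1073 CPM in ovary (SD, n = 14) and 11 reads in all 14 female brains together, a log2 difference of 18.38 ± 0.25. Its paralogs on the same chromosome are close in sequence, and how reads shared between them were counted is not given in the sources used here, so their separate values are uncertain. Beside it, Hsd3b3 ran from 1156 to 2828 CPM in ovary, Hsd3b2 from 79.3 to 409 and Hsd3b5 from 1.53 to 3.87. The androgen-making enzyme Cyp17a1 (chromosome 1, 255476861 to 255484547) averaged 41.9 ± 39.4 CPM in ovary (SD, n = 14), with a log2 difference of 10.44 ± 0.97 over a brain level of 0.0268 CPM (22 reads). Its standard error was the largest among the 10 genes, as was its spread between ovaries.

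Aromatase, Cyp19a1 (chromosome 8, 63449148 to 63476534), ran from 2.02 CPM in ovary 22 to 74.1 CPM in ovary 2, with a median of 18.0, over 0.361 to 1.00 CPM in brain. The log2 difference was 5.03 ± 0.43. Hsd17b1 (chromosome 10, 86510011 to 86512211), which makes estradiol from estrone, ran from 25.3 to 290 CPM in ovary and from 0.428 to 1.496 CPM in brain, a log2 difference of 7.45 ± 0.31. Hsd17b7 (chromosome 13, 84702875 to 84722810) showed the smallest difference among the called genes, 66.4 ± 44.4 CPM against 11.4 ± 1.69 CPM (SD, n = 14 each), 2.56 ± 0.25 on the log2 scale.

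The reducing enzymes differed from each other. Akr1c3 (chromosome 17, 71020884 to 71037779) held 346 CPM in ovary 28, a median of 1267 and 4298 CPM in ovary 24, against 27 reads over the 14 brains. The log2 difference was 15.38 ± 0.54. Srd5a1 (chromosome 1, 35514914 to 35548898) was the gene not called: ovaries ran from 7.69 to 110 CPM with a median of 34.3, and brains from 17.7 to 28.0 CPM with a median of 22.7. The brain range lay wholly inside the ovary range. The log2 difference was 0.98 ± 0.34 (edgeR adjusted p = 0.00876), just under the fold threshold. It passed with upper quartile factors (1.07) and without the low-count filter (1.02), and was 0.44 (edgeR adjusted p = 0.272) with the rat as a block.

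**Figure D1:**
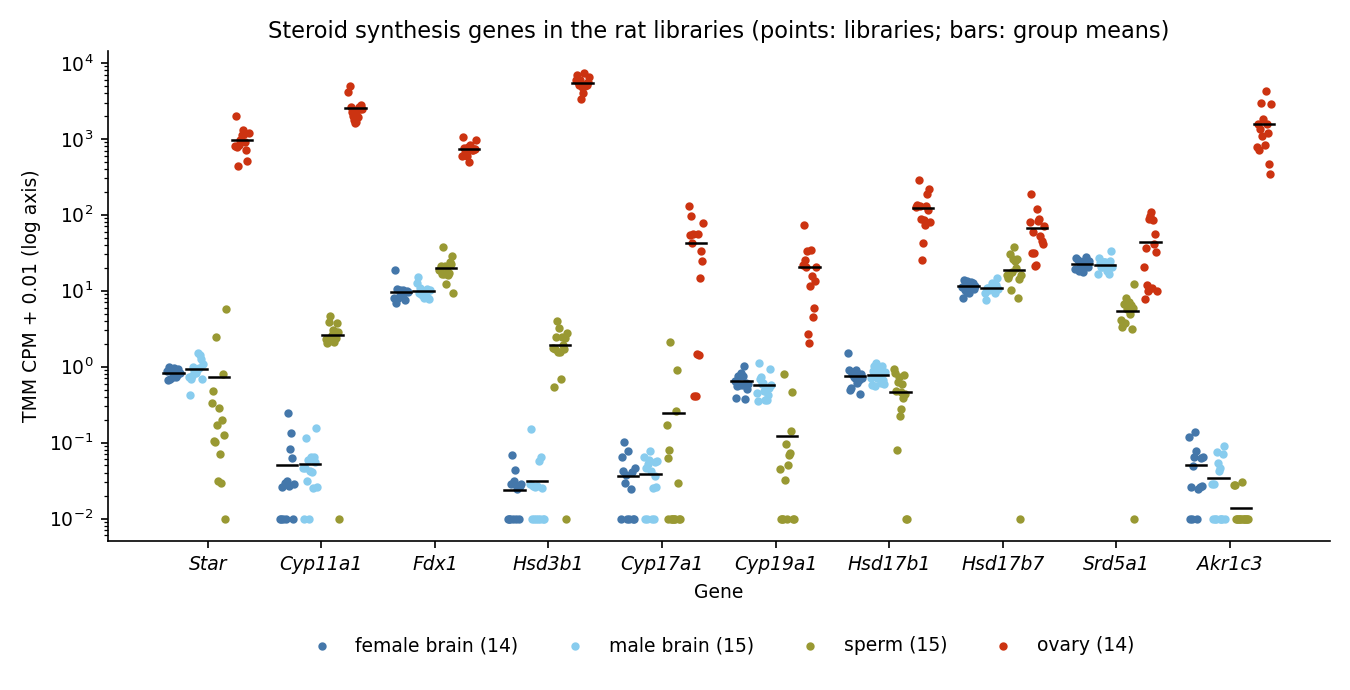
Level of each gene in each rat library, on a log axis of TMM CPM with 0.01 added so that zeros can be drawn at 0.01. Points are libraries (14 female brains, 15 male brains, 15 sperm, 14 ovaries) and bars are group means. Ovary points lie above all brain points for every gene but Srd5a1, whose ovary points run from 7.69 to 110 CPM across the brain points.

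The wider pathway was read from lists of related genes, beside 27.7% of all genes called higher and 29.2% lower. All 5 tested genes of the Hsd3b family, some of which may share reads, were higher in ovary. Of 17 regulators of steroid synthesis, 14 were higher and none lower. The leading ones were the transcription factors Gata4 (log2 difference 12.85 ± 0.24) and Nr5a2 (10.05 ± 0.29) and the luteinizing hormone receptor Lhcgr (11.85 ± 0.55). Of 12 genes of cholesterol supply, 6 were higher and none lower, led by Scarb1, the receptor that takes up cholesterol from high-density lipoprotein (6.69 ± 0.17), the mitochondrial protein Tspo (5.21 ± 0.18) and Soat1, which makes cholesterol esters (5.11 ± 0.21). Of 6 electron transfer genes, Fdxr, the reductase that feeds Fdx1, was higher by 5.51 ± 0.09, H6pd by 1.78 ± 0.11 and Cyb5a by 1.06 ± 0.08.

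Cholesterol synthesis itself did not follow the pathway genes. Of its 20 genes, 3 were higher (Dhcr7 by 3.79 ± 0.09, Idi1 by 1.34 ± 0.16, Ebp by 1.16 ± 0.08) and 2 were lower, Sc5d with a log2 difference of -2.06 ± 0.08 and Hmgcs1 with -1.81 ± 0.11. The list's median was 0.19. Among 19 tested other steroid enzymes, 10 were higher and 4 lower. The largest were the aldo-keto reductases Akr1b8 (7.95 ± 0.48), Akr1c14 (6.02 ± 0.17) and Akr1b7 (5.90 ± 0.48). On the other side stood Cyp11b1 (-8.14 ± 0.31), the 24-hydroxylase Cyp46a1 by which brain clears cholesterol (-7.89 ± 0.21) and Cyp7b1 (-1.80 ± 0.09).

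The 14 ovaries differed far more in some of the 10 genes than in others. On the log2(CPM + 1) scale the standard deviation over ovaries was 2.37 for Cyp17a1, 1.34 for Srd5a1, 1.32 for Cyp19a1 and 1.02 for Akr1c3. Over the 10069 genes that averaged 10 CPM or more in ovary the median standard deviation was 0.198, and 99.97%, 99.1%, 99.0% and 98.1% of them varied less than these 4. Hsd17b1 (0.90), Hsd17b7 (0.89) and Star (0.55) came next. Hsd3b1 (0.30) and Fdx1 (0.29) varied least, and still more than 75.3% and 74.4% of genes.

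Cyp17a1 separated the ovaries most. It was 129 CPM in rat 1, 96.8 in rat 18, 77.1 in rat 29, 55.8 in rat 24, 55.03 in rat 20, 53.9 in rat 2, 42.4 in rat 19, 32.9 in rat 27, 24.8 in rat 28 and 14.8 in rat 26. In rats 21, 22, 23 and 25 it was 0.406, 0.398, 1.46 and 1.40 CPM. The lowest of the first 10 thus lay far above the highest of the other 4. Srd5a1 ran the other way: 88.4, 96.7, 110 and 84.1 CPM in rats 21, 22, 23 and 25, the 4 highest of all. The next was 54.99 CPM in rat 27, and rats 2, 29, 20, 24 and 19 held 7.69, 9.77, 10.0, 11.0 and 11.7 CPM.

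**Figure D2:**
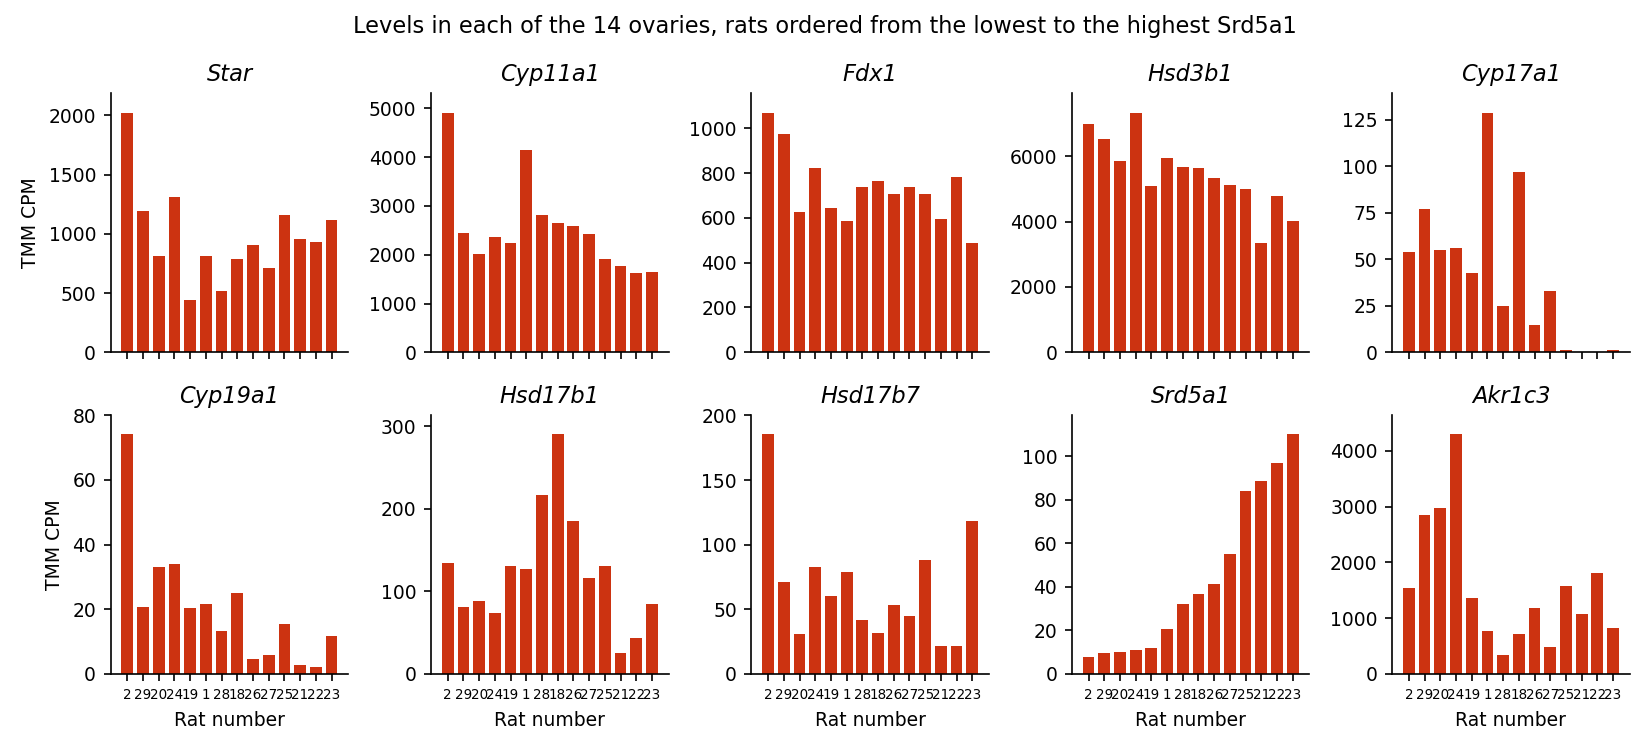
TMM CPM of each gene in each of the 14 ovaries, one bar per rat, with the rats in the same order in every panel, from the lowest to the highest Srd5a1. Cyp17a1 is 0.398 to 1.46 CPM in the 4 ovaries at the right, where Srd5a1 is 84.1 to 110 CPM, while Star and Akr1c3 show no such step.

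The same 4 ovaries were described further for the other genes, with no test, since they were picked out for their Cyp17a1. Cyp11a1 was 1626 to 1910 CPM in them and 2021 to 4912 in the other 10, and Hsd3b1 was 3335 to 4988 against 5102 to 7335. For both genes they were the 4 lowest. Lhcgr, the receptor through which luteinizing hormone drives theca cells, was 30.6 to 97.6 CPM against 214 to 877. Star, by contrast, lay inside the range of the others (932 to 1155 CPM against 442 to 2022), and so did Akr1c3 (824 to 1810 against 346 to 4298). Cyp19a1 was 2.02 and 2.68 CPM in rats 22 and 21, the 2 lowest, but 11.7 and 15.5 in rats 23 and 25. Hsd17b7 likewise held the 2 lowest values in rats 21 and 22 (21.4 and 21.5 CPM) and values near the top in rats 25 and 23 (88.3 and 118).

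Some sums of cell type markers set these ovaries apart and others did not. The summed level of the 6 theca markers was 116 to 195 CPM in the 4 ovaries and 377 to 1058 in the others, a sum in which Lhcgr, given above, weighs heavily. The theca marker Insl3 showed no such step, at 1.91, 3.34, 1.24 and 0.585 CPM in rats 21, 22, 23 and 25 and 1.19 to 4.39 CPM in the others. The summed level of the 7 luteal markers was 2331 to 3502 against 3720 to 7137, so the 4 ovaries were lowest in both lists, which share Lhcgr. Single luteal markers went both ways. In the edgeR fit on Cyp17a1 described below, which includes this split, Prlr and Lhcgr rose with Cyp17a1 while Parm1 and Timp1 fell. The 10 granulosa markers overlapped (1638 to 4067 against 2531 to 6205), as did oocyte markers (25.3 to 36.1 against 34.6 to 123), oviduct markers (55.6 to 71.5 against 5.96 to 95.8) and fat cell markers (7.35 to 685 against 15.8 to 882). The part of cell type makeup in the Cyp17a1 and Srd5a1 values was not tested.

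How the genes moved together over the 14 ovaries was the second question. Each of the 45 pairs was described by Pearson r and Spearman rho of log2(CPM + 1), with a permutation p from 100000 resamples that was not adjusted over the pairs. In addition each gene in turn was fitted as a covariate across all 17656 genes in edgeR, which gave a slope in log2 units per log2 unit and a p adjusted over all genes. Of the 90 slopes of one of the 10 genes on another, 9 passed. Against that, the share of all genes called ran from 0% on Hsd17b7 and Fdx1 to 11.4% on Srd5a1.

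Srd5a1 opposed Hsd3b1 and Cyp19a1. Srd5a1 and Hsd3b1 gave r = -0.80 (permutation p = 8e-05) and rho = -0.88 (permutation p = 3e-05) over 14 ovaries. Without the 2 ovaries farthest from the median r was -0.78 leaving out the extremes of Hsd3b1 and -0.74 leaving out those of Srd5a1. Ovaries 21, 22, 23 and 25 were the 4 highest in Srd5a1 and the 4 lowest in Hsd3b1, a step that the r over 14 ovaries includes. Within the 10 other ovaries r was -0.67. The slope of Hsd3b1 on Srd5a1 was -0.17 ± 0.04 (edgeR adjusted p = 0.0202, and 0.0589 without the low-count filter), where 11.4% of all genes were called, and that of Srd5a1 on Hsd3b1 was -4.04 ± 0.77 (edgeR adjusted p = 0.01004), where 6.42% were called.

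For Srd5a1 and Cyp19a1, r was -0.78 (permutation p = 0.00093) and rho -0.82 (permutation p = 0.00063). Leaving out the 2 farthest ovaries gave -0.70 or -0.74, and the 10 ovaries alone gave -0.81. The slope of Cyp19a1 on Srd5a1 was -0.73 ± 0.17 (edgeR adjusted p = 0.0147). Ovary 2 had both the highest Cyp19a1 and the lowest Srd5a1, and without it the slope was -0.61 (edgeR adjusted p = 0.0525). Srd5a1 on Cyp11a1 had a slope of -1.97 ± 0.56 (edgeR adjusted p = 0.0416, 8.47% of genes called) with an edgeR adjusted p of 0.0521 without the low-count filter and 0.151 without ovary 2.

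**Figure D3:**
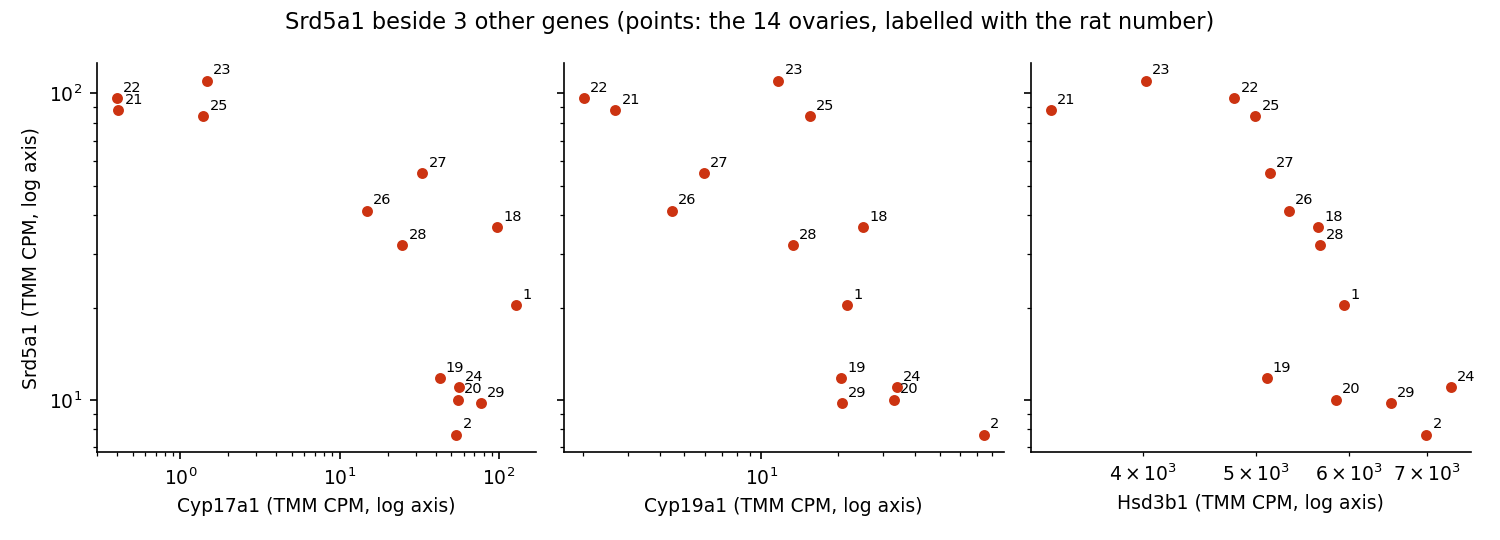
Srd5a1 (vertical log axis, TMM CPM) against Cyp17a1, Cyp19a1 and Hsd3b1 (horizontal log axes, TMM CPM), one point per ovary with the rat number beside it. Against Cyp17a1 the points form 2 separate groups, ovaries 21, 22, 23 and 25 below 1.47 CPM and the other 10 at 14.8 CPM or more. Against Cyp19a1 (r = -0.78) and Hsd3b1 (r = -0.80) the points fall from left to right. In each panel the same 4 ovaries are the highest in Srd5a1, and they are also the 4 lowest in Hsd3b1, though not in Cyp19a1.

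Cyp19a1 and Hsd3b1 rose together, with r = 0.73 (permutation p = 0.0029), rho = 0.81 (permutation p = 0.00089) and r = 0.71 within the 10 ovaries. The slope of Cyp19a1 on Hsd3b1 was 3.39 ± 0.82 (edgeR adjusted p = 0.0260) and 2.85 without ovary 2 (edgeR adjusted p = 0.0948). Since Cyp17a1 splits the ovaries into separate groups, no pooled correlation is given for it. Its edgeR fit over all 14 ovaries includes the same split, so its calls cannot be told from a difference between the groups. That fit called Srd5a1 (slope -0.43 ± 0.08), Hsd3b1 (0.09 ± 0.03) and Cyp11a1 (0.14 ± 0.04), where 10.2% of all genes were called. None of these genes was called on Cyp17a1 without ovaries 21, 22, 23 and 25. The calls of Hsd3b1 and Cyp11a1 were lost without the low-count filter (edgeR adjusted p = 0.0854 and 0.0539). In the 10 ovaries above 14 CPM the r of Cyp17a1 was 0.62 with Cyp19a1, 0.40 with Hsd3b1, -0.40 with Srd5a1, 0.28 with Cyp11a1 and 0.11 with Lhcgr. Without ovaries 21, 22, 23 and 25, a fit chosen after seeing the data, all 9 called slopes between the 10 genes kept their sign and 0 of 9 stayed under the edgeR threshold. Without ovary 2, 6 of 9 stayed under it. The 9 count Srd5a1 with Hsd3b1, and Hsd3b1 with Cyp17a1, in both directions. For Srd5a1 and Cyp11a1, r within the 10 ovaries was -0.12 and rho was 0.03, so the sign did not hold by rank.

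Upstream sequence is shown for Srd5a1 and for Hsd3b1 and Cyp11a1, the genes with an entry whose slopes with it were called, as the 250 bases before the RefSeq start in GRCr8, written 5' to 3' on the gene's strand. Capitals mark 3 motifs on either strand: AGGTCA, the half-site bound by nuclear receptors, GGGCGG, the GC box bound by Sp1, and TATAAA. The lines give Cyp11a1 (chr8:67318415-67318664, plus strand), Hsd3b1 (chr2:188864695-188864944, minus strand) and Srd5a1 (chr1:35514664-35514913, plus strand).
Cyp11a1: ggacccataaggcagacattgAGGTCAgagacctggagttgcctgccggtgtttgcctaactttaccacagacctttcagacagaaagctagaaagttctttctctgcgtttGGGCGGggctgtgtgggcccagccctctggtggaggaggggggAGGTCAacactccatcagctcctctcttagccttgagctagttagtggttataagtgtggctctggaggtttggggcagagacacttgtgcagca
Hsd3b1: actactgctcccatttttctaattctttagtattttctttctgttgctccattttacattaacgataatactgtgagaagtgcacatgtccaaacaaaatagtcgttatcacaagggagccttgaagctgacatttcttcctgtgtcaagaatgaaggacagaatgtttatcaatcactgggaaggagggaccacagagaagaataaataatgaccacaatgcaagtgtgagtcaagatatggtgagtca
Srd5a1: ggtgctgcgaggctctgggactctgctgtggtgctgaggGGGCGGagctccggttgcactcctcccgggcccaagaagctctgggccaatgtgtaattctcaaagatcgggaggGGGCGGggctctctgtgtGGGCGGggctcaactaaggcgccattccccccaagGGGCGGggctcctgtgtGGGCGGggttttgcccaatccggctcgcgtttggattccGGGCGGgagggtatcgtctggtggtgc
The Cyp11a1 window held 2 half-sites, starting 229 and 95 bases before the start, and 1 GC box. Srd5a1 held 6 GC boxes and no half-site, at 66.4% GC. The Hsd3b1 window held none of the 3 motifs, at 38.0% GC. Over 33469 RefSeq promoters of the same length, 14.1% held the half-site, 30.5% the GC box and 12.9% TATAAA. The longer CAAGGTCA, searched as the site of the steroidogenic factor Nr5a1, was in none of these 3 windows and in 1.3% of the promoters. A match is a run of letters only, not a binding site.

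Related genes moved with Srd5a1 in both directions. With rising Srd5a1, 4 of 5 Hsd3b genes fell (6.02% of all genes had a negative call), Hsd3b2 with a slope of -0.37 ± 0.09 and Hsd3b3 with -0.21 ± 0.05. These 4 include Hsd3b1, given above. How reads shared between the paralogs were counted is not known, so they cannot be taken as 4 separate results. Of 7 luteal markers, the receptors Prlr (-0.40), Ptgfr (-0.50) and Lhcgr (-0.70) fell, while Parm1 (0.37) and Timp1 (0.51) rose. Sqle, an enzyme of cholesterol synthesis, fell too (-0.19 ± 0.04). Akr1b8 (0.90 ± 0.13), Akr1b7 (0.70 ± 0.17) and Hsd17b2, which oxidizes estradiol back to estrone (0.41 ± 0.11), rose, where 5.36% of all genes had a positive call. Without ovaries 21, 22, 23 and 25 Akr1b8 was the one of these genes still called, and 0.671% of all genes were. Without ovary 2 the calls of Lhcgr, Ptgfr and Hsd17b2 were lost and those of the others held.

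Hsd17b1 moved with granulosa cell genes. Of 10 granulosa markers 7 rose with it, where 2.91% of all genes had a positive and 1.57% a negative call: the follicle-stimulating hormone receptor Fshr (slope 0.94 ± 0.08, edgeR adjusted p = 6.7e-05), the inhibin subunits Inhbb (0.78 ± 0.16) and Inha (0.56 ± 0.09), Amh (0.64 ± 0.14), Gja1 (0.42 ± 0.09), Foxl2 (0.35 ± 0.07) and Amhr2 (0.34 ± 0.09). Oocyte genes rose with it too, 4 of 7: Zp1 (0.68 ± 0.15), Zp3 (0.57 ± 0.14), Zp2 (0.51 ± 0.12) and Gdf9 (0.47 ± 0.13). So did 3 of 6 theca markers and, among 17 regulators, the estrogen receptor Esr2 (0.42 ± 0.07) and Gata6 (0.37 ± 0.06). Without ovaries 21, 22, 23 and 25 the called granulosa genes were Fst, Fshr, Inha and Inhbb, the oocyte genes Gdf9 and Bmp15, and no theca marker, with 3.87% of all genes called. The summed granulosa markers ran from 1638 CPM in ovary 21 to 6205 CPM in ovary 28, and their part in the Hsd17b1 slopes was not tested. In that fit Akr1c3 fell with rising Hsd17b1, and its r with Hsd17b1 was -0.74 in the 10 ovaries and -0.42 in all 14.

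Of the listed genes, 2 were called with Akr1c3: Cebpb, 1 of 17 regulators, and Ptgfr, the receptor for prostaglandin F2-alpha, 1 of 7 luteal markers. Both were positive, in all 14 ovaries, without ovary 2, and without the 4 ovaries. No other pathway or marker list held a call over the 14 ovaries. The share of all genes called on Akr1c3 was 2.42%, and 2 calls over all the lists do not exceed that share. No slope of one of the other 9 genes on Star, Cyp19a1, Hsd17b1, Hsd17b7, Fdx1 or Akr1c3 was called by edgeR over the 14 ovaries, at 1.47%, 1.59%, 4.49%, 0%, 0% and 2.42% of all genes. At an unadjusted p under 0.05 these fits held 1, 5, 0, 3, 2 and 2 of the 9 genes, and DESeq2 called 0, 4, 0, 0, 0 and 0. Star and Hsd3b1 gave r = 0.25 over 14 ovaries and 0.83 over the 10, and Star and Akr1c3 gave r = 0.50 (permutation p = 0.063) and rho = 0.62 (permutation p = 0.019).

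The genes most like each of the 10 were ranked by Pearson r over the 14 ovaries among 9767 genes with a proper symbol that averaged 10 CPM or more. Hsd3b1 was closest to its paralog Hsd3b3 (r = 0.96), with which it may share reads, then to Id2 (0.96) and Baz1a (0.94). Star was closest to Tbc1d14 (0.94), Bcar1 (0.94) and Gpc1 (0.92), and Cyp11a1 to Sdha, a subunit of mitochondrial complex II (0.96), Ehd3 (0.95) and Pakap (0.95). Cyp19a1 led to Fat1 (0.91), Taf2 (0.90) and Cnot4 (0.90), and Hsd17b1 to Plekhd1 (0.97), Serpine2 (0.94) and Ptpre (0.94). For Srd5a1 they were P4ha2, a collagen prolyl hydroxylase subunit (0.96), Cers4 (0.96) and Gfpt2 (0.95), and for Akr1c3 Cdkn2b (0.93), Tp53inp1 (0.93) and Sucla2 (0.91). Hsd17b7 had Reep3 (0.89), Gstt3 (0.87) and C8h15orf39 (0.84), and Fdx1 had Mrps22 (0.88), Dnajc15 (0.87) and Rbm45 (0.86). The nearest genes of Cyp17a1, C8h15orf61, Gpatch4 and Chrnb4, fell to r = 0.65, 0.60 and 0.69 within the 10 ovaries. For the other genes of the 10, each of these neighbours had an r of at least 0.798 there. These values are no separate check, since the neighbours were picked as the highest of 9767 over the 14 ovaries, which include the 10. On Hsd17b7 and Fdx1 the edgeR fits called 0 genes, so none of their neighbours passed.

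In rat brain, reads were found for some of the 10 genes in every library and for others hardly at all. In female brain the levels in CPM (mean ± SD, n = 14) were 22.5 ± 3.25 for Srd5a1, 11.4 ± 1.69 for Hsd17b7 and 9.72 ± 2.85 for Fdx1. Star (0.820 ± 0.104), Hsd17b1 (0.745 ± 0.258) and Cyp19a1 (0.629 ± 0.173) were under 1, and Cyp11a1, Cyp17a1, Hsd3b1 and Akr1c3 were each under 0.05. Fdx1 was 18.8 CPM in brain 2 and lower in the other 13. Female and male brain were then compared. Of the 6 genes tested, 0 were called by edgeR, 0 had an unadjusted p under 0.05 and DESeq2 called 0, where 0.18% of 20570 genes were called (0.0826% higher and 0.0972% lower in females). The log2 difference, female minus male, was -0.20 ± 0.13 for Star, 0.12 ± 0.17 for Cyp19a1, -0.12 ± 0.15 for Hsd17b1, 0.07 ± 0.07 for Hsd17b7, 0.02 ± 0.09 for Srd5a1 and -0.01 ± 0.12 for Fdx1. The 4 others had 11 to 39 reads per group and were not tested.

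Rat sperm was then read gene by gene. Against the brains of the same males 3 genes were called higher and 2 lower of 8 tested, where 59.1% of 20480 genes were called (27.7% higher, 31.5% lower), a share close to that of these genes. Markers of other cells moved with the comparison: 4 of 4 blood genes were higher in sperm, with a summed level of 1590 to 48856 CPM against 328 to 1565 CPM in male brain, and so were 4 of 4 tested epididymis genes of 8 listed (2.17 to 113.2 against 0.654 to 1.54 CPM). Their part in the sperm values was not tested. Cyp11a1 was 2.06 to 4.62 CPM in 14 of the 15 sperm libraries and 0 in library 17, while no male brain passed 0.145 CPM. The log2 difference was 5.90 ± 0.48 (edgeR adjusted p = 1.6e-12). Hsd3b1 was 0 in library 16 and 0.536 to 3.94 CPM in the others, over at most 0.139 CPM in brain, a difference of 6.68 ± 0.65. Its paralog Hsd3b2 was at 4.25 to 36.9 CPM in the same libraries. Fdx1 was 19.9 ± 6.60 CPM in sperm and 9.80 ± 1.96 CPM in brain (SD, n = 15), a difference of 1.09 ± 0.16, and dropped under the fold threshold with RLE factors (0.87), in DESeq2 (0.88) and without libraries 7 and 14 (0.96).

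On the lower side were Srd5a1 and Cyp19a1. Srd5a1 was 0 to 12.2 CPM in sperm with a median of 5.73 and 16.4 to 33.2 CPM in male brain, so that the groups did not overlap, with a difference of -1.97 ± 0.33. Cyp19a1 had a median of 0.0355 CPM in sperm and 0.514 CPM in brain (-2.22 ± 0.59). Hsd17b7 (0.88 ± 0.36, edgeR adjusted p = 0.0274) and Hsd17b1 (-0.65 ± 0.39, edgeR adjusted p = 0.130) were not called. Star was not called either (-0.47 ± 0.60, edgeR adjusted p = 0.477): its median was 0.158 CPM, and library 17, at 5.77 CPM, and library 7, at 2.41, stood apart. Without libraries 16 and 17 its difference was -1.17 (edgeR adjusted p = 0.0319), and with the rat as a block -2.11 (edgeR adjusted p = 0.00754). Akr1c3 had 3 reads over the 15 sperm libraries, and the brains were 5.45 times higher (95% counting interval 1.86 to 26.4).

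Sperm libraries 7 and 14 held the most Cyp17a1, 2.13 and 0.880 CPM, and 8 of the 15 had no read of it. In the same 2 libraries the Leydig cell hormone Insl3 was 3.92 and 0.994 CPM, Lhcgr 3.98 and 3.99 CPM and the steroidogenic factor Nr5a1 3.24 and 2.77 CPM, the 2 highest of the 15 in each case. The summed level of the Leydig cell list ran from 0 to 14.4 CPM over the 15 libraries, with a median of 3.04, and its part in these values was not tested. That list holds Cyp17a1 and Hsd3b1 themselves, so its sum is in part the values it stands beside. Ovary was called higher than sperm in 10 of 10 genes, where 24.2% of 19611 genes were called higher in ovary and 51.3% in either direction. The ranges overlapped for Cyp17a1 (ovary from 0.398 CPM, sperm up to 2.13), Hsd17b7 (from 21.4, up to 37.2) and Srd5a1 (from 7.69, up to 12.2). The differences ran from 1.61 ± 0.41 for Hsd17b7 and 2.77 ± 0.48 for Srd5a1 to 11.24 ± 0.45 for Hsd3b1. For Akr1c3, with its 3 sperm reads, the ratio was 356541 (95% counting interval 122002 to 1728900). Tissue and sex cannot be told apart in that comparison.

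For the sheep brain, the contrast was 1 region minus the average over its 9 counterparts. The table held 8 of the genes at levels that could be tested, giving 80 pairs of a gene and a region, of which 20 were called at an adjusted p below 0.05. The cerebellum (6 of 8 genes, 60.7% of all 21147 genes called), pons (4 of 8, 48.3%) and basal ganglia (4 of 8, 27.6%) held most of them. With 27.6% to 60.7% of all genes called in these regions, a call there was shared with many genes.

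HSD17B7 stood out in the pons. It was 18.9, 16.1, 18.1, 12.0 and 23.7 CPM there in sheep 687, 688, 690, 694 and 699, above all 9 other regions in 5 of 5 sheep. The highest value in another region was 12.0 CPM, in motor cortex of sheep 688, level with the lowest pons value. The log2 difference was 1.42 ± 0.12 (edgeR adjusted p = 8.3e-13). In the same region 17 of 18 cholesterol synthesis genes were higher. The summed level of 4 oligodendrocyte markers, all 4 called higher, was 13866 to 66353 CPM in pons against at most 24437 CPM elsewhere. That of 4 astrocyte markers, of which GFAP and AQP4 were called higher and SLC1A3 lower, was 12731 to 17338 CPM against at most 7262 CPM, with no overlap. Of 5 neuron markers, 4 were lower. The part of these cells in the HSD17B7 difference was not tested. In the cerebellum, where 13 of 18 cholesterol synthesis genes were lower, HSD17B7 was lower by -0.38 ± 0.15, a call lost without sheep 687 (-0.32) or 694 (-0.36). It was lower in basal ganglia too (-0.41 ± 0.15), lost without sheep 687 (-0.31), 694 (-0.44) or 699 (-0.32).

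HSD17B1 was the cerebellar gene of the set, at 2.04, 2.85, 2.12, 2.09 and 3.03 CPM in sheep 687, 688, 690, 694 and 699 and no more than 1.18 CPM in any other region, highest of 10 regions in 5 of 5 sheep. The difference was 2.22 ± 0.16 (edgeR adjusted p = 1.3e-15). A smaller rise in pons (0.58 ± 0.19) was lost without sheep 687 (0.42) or 690 (0.48). SRD5A1 was lowest in these 2 regions, at 25.3 to 31.1 CPM in cerebellum (-0.76 ± 0.10) and 20.5 to 30.9 CPM in pons (-0.81 ± 0.10), with every other region at 40.5 CPM or more. Frontal cortex was higher by 0.34 ± 0.09, lost without sheep 690 (0.27) or 694 (0.29), and basal ganglia by 0.23 ± 0.09, lost without sheep 687 (0.23), 690 (0.27), 694 (0.19) or 699 (0.16).

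HSD3B1 graded across the brain. Its mean was highest in prefrontal cortex (1.53 ± 0.153 CPM, SD, n = 5), then frontal (1.47 ± 0.269), visual (1.30 ± 0.454), motor (1.27 ± 0.208) and posterior parietal cortex (1.06 ± 0.320), basal ganglia (0.733 ± 0.599), hippocampus (0.673 ± 0.216) and entorhinal cortex (0.662 ± 0.381), and lowest in cerebellum (0.259 ± 0.0402) and pons (0.206 ± 0.0882). Neighbours in this order overlapped at every step except between entorhinal cortex and cerebellum. Higher calls were made in prefrontal (1.10 ± 0.22, 6.31% of genes called), frontal (1.02 ± 0.22, 7.85%), visual (0.84 ± 0.23, 5.65%) and motor cortex (0.80 ± 0.23, 3.55%), and lower ones in cerebellum (-1.75 ± 0.29) and pons (-2.07 ± 0.30). The visual call was lost without sheep 687 (0.70) or 694 (0.84) and the motor call without sheep 688 (0.84), 690 (0.72) or 694 (0.69).

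FDX1 was highest in basal ganglia in 5 of 5 sheep, at 14.8, 15.8, 12.2, 13.8 and 16.8 CPM in sheep 687, 688, 690, 694 and 699 (0.66 ± 0.08, edgeR adjusted p = 5.4e-09), and lower in cerebellum (-0.44 ± 0.09). The low aromatase counts rose in basal ganglia, where CYP19 was 0.0408 to 0.762 CPM (3.18 ± 0.74), and in entorhinal cortex (4.48 ± 0.65, 3.36% of genes called), where sheep 694 alone held 3.28 CPM and the others at most 0.347. Without sheep 694 the entorhinal difference was 1.83 (edgeR adjusted p = 0.397). CYP19 had 0 reads in posterior parietal cortex. That region enters the average of the others on the log scale in both contrasts, so the size of these CYP19 differences is uncertain. CYP17A1 was at most 0.286 CPM in any of the 50 brain libraries and CYP11A1 at most 0.255.

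STAR differed between sheep more than between regions. Sheep 688 was highest in 10 of 10 regions (1.60 to 4.06 CPM), and sheep 694 was lowest in 6 and sheep 699 in 4. Cerebellum was the lowest region in 5 of 5 sheep (-1.06 ± 0.43, edgeR adjusted p = 0.0299). That call was lost without sheep 687 (-1.11), 690 (-1.06), 694 (-1.02) or 699 (-1.05), while with the sheep as a block its adjusted p in edgeR was 5.3e-08. The block also added a call for STAR in basal ganglia (0.54, edgeR adjusted p = 0.00102). Hippocampus (11% of genes called) and posterior parietal cortex (10.4%) had no call among the 8 genes by edgeR. At an unadjusted p under 0.05 they held 1 and 3 genes, and DESeq2 called FDX1 in hippocampus and CYP19 and HSD17B7 in posterior parietal cortex.

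**Figure D4:**
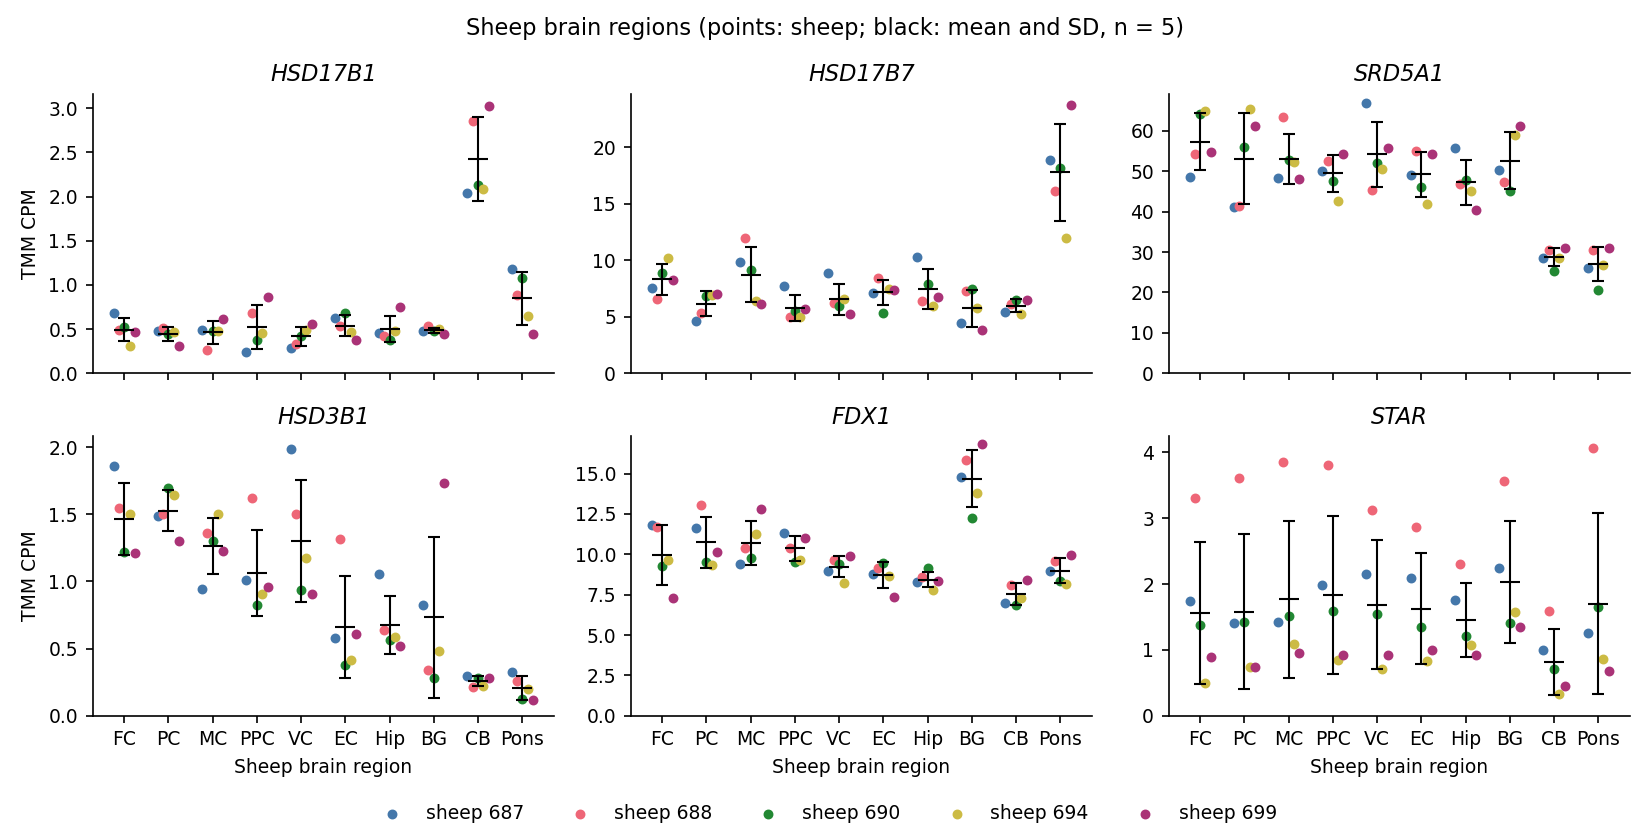
TMM CPM of 6 genes in the 10 sheep brain regions (FC frontal, PC prefrontal, MC motor, PPC posterior parietal, VC visual, EC entorhinal cortex, Hip hippocampus, BG basal ganglia, CB cerebellum). Coloured points are sheep and black marks are mean and SD (n = 5). HSD17B1 peaks in cerebellum at 2.04 to 3.03 CPM, HSD17B7 in pons at 12.0 to 23.7 CPM and FDX1 in basal ganglia, SRD5A1 is low in cerebellum and pons, and sheep 688 has the highest STAR in each region.

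Sheep sperm was compared with the mean of the 10 regions. Its libraries hold few reads of these genes, 630 of FDX1 over the 5 libraries, and the TMM scale raises them: mean FDX1 in sperm was 13.5 CPM on that scale and 3.16 CPM on plain library totals. Scaled to plain totals, sperm lay below brain in mean STAR (0.673 against 1.86 CPM), HSD17B1 (0.283 against 0.869), FDX1 (3.16 against 11.5), CYP17A1 (0.0337 against 0.0834) and CYP19 (0.0519 against 0.174), so the direction of these 5 genes turned with the scaling. CYP11A1 stayed higher in sperm (0.247 against 0.0350 CPM), and HSD3B1, HSD17B7 and SRD5A1 stayed lower. Of 9 genes, 1 was called higher and 2 lower, where 74.2% of 21859 genes were called (33.1% higher and 41.1% lower, so that 44.6% of calls were higher). With upper quartile factors that share was 56.1% and in DESeq2 55%, and the median log2 difference of all genes moved from -0.42 to 0.31 and 1.05.

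CYP11A1 was 4.30, 0.971, 0, 0.111 and 2.47 CPM in sperm of sheep 687, 688, 690, 694 and 699, with 67 reads in all, and at most 0.255 CPM in brain (6.49 ± 0.57, edgeR adjusted p = 8.1e-15). It was higher in sperm than in the sheep's own brain in 4 of 5 sheep, and in rats in 14 of 15. HSD3B1 had 0 reads in all 5 sperm libraries, so that brain, at 0.916 ± 0.541 CPM (SD over 50 libraries), was at least 12.4-fold higher, taking 3 reads over the group as the floor. In rats the direction was the other way, with sperm above the own brain in 14 of 15 males, a difference between species that was not tested. The genes were matched by symbol only, with 5 genes of the Hsd3b list in the rat table and 2 in the sheep table. Rat Hsd3b1 may also share reads with its paralogs, so the values need not be like for like.

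HSD17B7 was called lower in sheep sperm (-1.23 ± 0.26), but not with upper quartile factors (-0.52), in DESeq2 (-0.95), without sheep 690 (-0.98) or with regions summed per sheep (-1.49, edgeR adjusted p = 0.0601). SRD5A1 was 7.12 to 40.2 CPM in sperm and lower than the own brain in 5 of 5 sheep (-0.96 ± 0.17), under the fold threshold; it passed without the low-count filter (-1.12), without sheep 688 (-1.06) or without sheep 690 (-1.24). The same gene was lower in sperm than in the own brain in 15 of 15 rats. STAR (0.95 ± 0.38), lower in sperm on plain totals, was not called, and passed with RLE (1.21) or upper quartile factors (1.70), in DESeq2 (1.21), with the sheep as a block (1.15), and without sheep 688 (1.27) or 690 (1.05). HSD17B1 (0.91 ± 0.35), also lower in sperm on plain totals, was not called and passed with RLE (1.083) or upper quartile factors (1.53), in DESeq2 (1.16), and without sheep 687 (1.21) or 699 (1.27). FDX1 (0.47 ± 0.16), likewise lower on plain totals, rested on sheep 688, at 31.3 CPM against 6.58 to 11.9 in the others, and was -0.08 without it. CYP17A1, with 8 sperm reads, all in sheep 699, and CYP19, with 5, were not called (1.52 ± 0.91 and 1.59 ± 1.30).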

How the data were processed

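RNA was sequenced from rat ovary, brain and sperm and from sheep brain regions and sperm, as stranded mRNA libraries. The deposited files hold raw counts of reads per gene, in separate tables for rat brain, ovary and sperm and 1 table for each sheep, which were joined by gene within each species. Per the submitters' processing notes, the authors used Trimmomatic 0.39, STAR 2.7.5a and Rsubread 2.20.0, with the builds GRCr8 (rat) and ARS-UI_Ramb_v3.0 (sheep). How strand and reads matching more than 1 gene were handled is not stated by any label or header, so values of close paralogs, of Cyp19a1, which overlaps LOC103693097, and of Srd5a1, which overlaps LOC120100362, are uncertain to that extent. The genes, the pathway and marker lists and the comparisons were chosen with earlier results of these data known.

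Tests were edgeR 4.0.16 quasi-likelihood tests in R 4.3.3 with TMM factors, the filterByExpr filter, a prior count of 0.125 and Benjamini-Hochberg adjustment over all genes that passed. A tissue comparison needed both an adjusted p under 0.05 and a difference of 1 log2 unit or more for a call, the others the adjusted p alone. Sheep sperm was tested against the mean of the 10 regions of the same 5 sheep, whose 50 libraries were entered singly, so its p-values do not allow for regions sharing an animal; sums per sheep and the sheep as a block were the alternatives. Co-variation fits used the centred log2(CPM + 1) of 1 gene as covariate over the 14 ovaries. The code was tested on simulated counts. The alternatives were RLE and upper quartile factors, plain library totals, no filter, DESeq2 1.42.0, the animal as a block and leaving out single sheep. Leaving out the rRNA-rich brains 1 and 4, sperm 7 and 14, ovaries 21, 22, 23 and 25, or ovary 2 was added after the data were seen. No sample was left out of the main fits. In the rat comparisons p-values measure the spread between animals, with the pairing of tissues from 1 rat left out of the main fits. The sheep region tests also entered the 50 libraries of 5 sheep singly. Their p-values thus do not allow for regions sharing an animal, and the sheep as a block was the alternative. Depth limits only the genes with few reads.

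Named genes were all 10 genes and the Hsd3b paralogs; from each pathway list, up to 3 called genes in each direction that differed most between ovary and female brain that averaged 10 CPM or more in the higher group; and for each gene the 3 with the highest Pearson r over the ovaries. Other genes were named after their values were seen, as members of a list or markers. Equal numbers mark the same animal, per the series' design text. Deviations from group means of same-numbered samples correlated between -0.306 and 0.155 for rat ovary and brain, -0.116 and 0.337 for rat sperm and brain, and 0.0224 and 0.166 for sheep sperm and brain, and had a median of 0.144 between regions of 1 sheep.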

Additional observations from a re-analysis of the deposited data

Results flagged for a closer look

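In groups of 5 sheep, 68 sets of values (1 gene in 1 region or in sperm) were searched for a single sheep far from the other 4, and 10 had one. For separate sets of normally distributed values chance gives about 1 in 20. These sets share the same 5 sheep and hold CPM not put on a log scale, so that rate need not apply to them. STAR of sheep 688 stood apart in motor cortex (3.86 CPM, others 0.948 to 1.52), prefrontal cortex (3.61, others 0.736 to 1.42) and pons (4.06, others 0.687 to 1.66). HSD3B1 of the same sheep stood apart in entorhinal cortex (1.32 CPM, others 0.382 to 0.611) and posterior parietal cortex (1.62, others 0.822 to 1.01), and its FDX1 in sperm (31.3 CPM, others 6.58 to 11.9). In sheep 687, HSD3B1 in hippocampus (1.05 CPM, others 0.521 to 0.640) and HSD17B7 in posterior parietal cortex (7.73 CPM, others 4.97 to 5.65) were far above the rest. CYP19 in entorhinal cortex was 3.28 CPM in sheep 694 and at most 0.347 in the others, and HSD17B1 in hippocampus was 0.749 CPM in sheep 699 and 0.377 to 0.481 in the others. All 10 were high values, and 6 of them came from sheep 688.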

How the results depend on the processing

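Of the values recomputed for single genes under the alternatives, 580 kept direction and side of the threshold or stayed within the spread, 48 fell below the threshold, 20 rose above it, 26 moved and 6 changed sign. The causes were not tested. Without the low-count filter more genes were tested, and the genes called went from 11832 to 18799 in ovary against brain, from 12111 to 22067 in rat sperm against brain and from 10061 to 19449 in ovary against sperm. Between female and male brain 37 genes were called, 156 by DESeq2, 74 without the 2 rRNA-rich brains and 24 with the rRNA share as covariate besides. There Cyp19a1 changed sign to -0.056 with that covariate, and Fdx1 to 0.051 without the 2 brains and 0.062 with the covariate, none of them called. For sheep sperm, CYP19 was -0.018 with regions summed per sheep. Leaving out 1 sheep gave CYP17A1 -4.88 to 1.96 and FDX1 -0.077 to 0.64, 15940 to 16329 called genes (16214 with all), 31068 to 35494 called pairs of gene and region (39052) and 12 to 19 such pairs among the steroid genes (20), the 12 without sheep 694.

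Genes called along single genes over the ovaries depended most on the processing. With Star they were 259, 69 with plain totals, 117 without the filter, 1077 in DESeq2 and 4 without ovary 2. With Cyp11a1 they were 1496, 2656 in DESeq2, 360 without ovary 2 and 150 without ovaries 21, 22, 23 and 25. With Cyp17a1 they were 1794, 2783 in DESeq2 and 0 without the 4 ovaries. With Cyp19a1 they were 280, 122 with plain totals, 98 without the filter, 1273 in DESeq2, 2 without ovary 2 and 0 without the 4 ovaries. With Hsd3b1 they were 1134, 1951 in DESeq2, 559 without ovary 2 and 0 without the 4 ovaries. Srd5a1 had 2009, and 115 without the 4 ovaries. Hsd17b1 had 792, and 1754 in DESeq2. Hsd17b7 had 0, 246 in DESeq2 and 293 without the 4 ovaries. Fdx1 had 0, and 38 in DESeq2. Akr1c3 had 427, 275 without the filter and 1106 in DESeq2.

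With the animal as a replicate block, 11837 genes were called in ovary against brain, 11925 in rat sperm against brain and 16268 in sheep sperm against brain. Across sheep regions it gave 43966 pairs, 21 of them among the steroid genes. It changed no other call on these genes than those of Star in both species' sperm and of STAR in basal ganglia. RLE factors moved the median of all genes in rat sperm against brain from -0.03 to -0.28. In DESeq2, where the tool changed too, it was 0.20.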
